A study of Homo sapiens with 9 samples.

Results

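Open chromatin in hypoxic T47D cells carrying a short hairpin RNA against ZHX2 (shZHX2) was compared with that in hypoxic T47D cells carrying a control hairpin (shCtrl). T47D is an established line of human luminal breast cancer cells positive for the oestrogen receptor. By the labels, each group held 3 samples, so 6 of the 9 samples of the series entered the comparison, and a further 3 shCtrl samples in normoxia are used here only to say whether a region was also called there. The hairpins were carried by lentivirus, cells were selected with hygromycin or puromycin, and both groups were kept in a hypoxia workstation. Not given in the sources used here are the oxygen level, the time in hypoxia, the number of hairpins against ZHX2, and the way in which 3 samples became 1 list. There was no group with shZHX2 in normoxia among the samples, so every difference described is one within hypoxia.

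The members are all regions called accessible in either hypoxic group. The shCtrl list held 77451 regions and the shZHX2 list 62779, which merged into 81860 regions, out of 97804 when the normoxia list was added. Each group has a single list with no values per sample. No spread between samples can be computed, no test was possible, and every value below describes 1 list against 1 list. Intervals on shares are Wilson 95% intervals that cover counting error only. The depth of the libraries is unknown, and a list made from fewer reads holds fewer regions, so depth and knockdown cannot be told apart in any count of called regions.

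ATAC-seq reads open chromatin through a transposase that inserts adapters where DNA is not wrapped in nucleosomes, mostly at promoters and enhancers. ZHX2 is a nuclear protein with zinc fingers and homeoboxes. It is a target of the VHL ubiquitin ligase, which also marks the HIF alpha subunits for destruction when oxygen is present, and in kidney cancer cells it has been linked to NF-kB signalling. In low oxygen HIF dimers bind short sites with the core ACGTG or GCGTG near genes of glycolysis, vessel growth and pH control.

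All 8 epithelial and luminal marker genes had a region at the promoter in both lists, none of the 3 basal markers (KRT5, KRT14 and TP63) and none of the 3 endothelial markers did, and 2 of 3 fibroblast and 2 of 4 blood markers did in both, as did 2 of 2 neuron and 1 of 2 liver markers. A called promoter is not expression. At ZHX2 itself, on chromosome 8, the promoter region stayed at a low rank, 16.7 in shCtrl and 14.9 in shZHX2, and 1 of its 9 assigned shCtrl regions was not called with shZHX2. A hairpin acts on the RNA, so accessibility at the gene does not check the knockdown, and no RNA or protein values were analysed here.

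With shZHX2, fewer weak regions were called and few regions appeared. Of the shCtrl regions, 19400 (25.0%, interval 24.7 to 25.4) shared no base with any shZHX2 region and are called lost below. Of the shZHX2 regions, 4466 (7.11%, interval 6.92 to 7.32) shared no base with a shCtrl region and are called gained. The words lost and gained refer to the call and not to a tested change.

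Lost regions sat at the bottom of the shCtrl list. Their median −log10 p, the strength the authors' peak caller gave, was 18.8 against 68.9 for kept regions, their median fold enrichment was 3.18 against 4.95, and their median width was 300 bp against 545 bp. In the weakest decile of shCtrl regions 73.0% were lost, and in the strongest 0.0387%. Gained regions were likewise weak, with a median −log10 p of 16.8 against 52.0 and a median width of 280 bp against 492 bp. In the weakest decile of shZHX2 regions 29.8% were gained, and in the strongest decile none. Of all lost regions 513 had a −log10 p above 50, and of all gained regions 37. Because strength sets so much of the call, each count below is set beside an expected number, the sum over the same regions of the lost or gained rate of their own −log10 p decile.

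**Figure D1:**
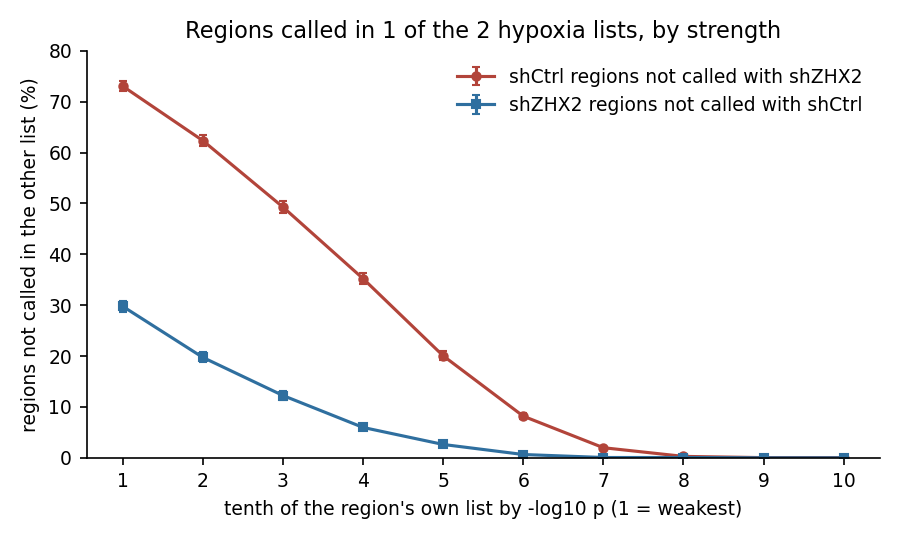
Share of regions lost or gained (percent, vertical axis) in each decile of −log10 p within the region's own list (horizontal axis, weakest first), with Wilson 95% intervals as bars, for shCtrl regions not called with shZHX2 and shZHX2 regions not called with shCtrl. Both shares drop from the weakest decile, 73.0% lost and 29.8% gained, to near 0 in the strongest.

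Regions that the normoxia list lacked were lost and gained more often than their strength gave. Of shCtrl regions not called in normoxia 85.3% were lost, where 60.4% were expected from their strength. Of shZHX2 regions not called in normoxia 72.8% were gained, about 3.6 times the share expected.

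The genes that HIF switches on in low oxygen were lost at about the number their strength gave. The glycolysis and glucose uptake list held 20 genes, all with an assigned shCtrl region, meaning a region whose nearest gene start or end was theirs and lay within 50 kb. Of their 67 shCtrl regions 12 were lost with 12.7 expected, and of their 57 shZHX2 regions 2 were gained with 2.11 expected. At least 1 region was lost at 7 of 20 of these genes (35%), beside 39.9% of the 17318 protein-coding genes with an assigned shCtrl region. At least 1 was gained at 2 of 20 (10%), beside 12.2% of the 16763 genes with an assigned shZHX2 region. The list on vessels, pH, matrix and survival had 23 of 111 regions lost with 25.5 expected and 4 of 92 gained with 6.07 expected. With lists of equal length by fold it had 26 gained with 14.6 expected and 16 lost with 13.9 expected, the other way round. Glycolysis genes then had 9 gained with 5.80 expected and 9 lost with 7.70 expected.

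Promoter strength was followed through the rank of the fold enrichment, as a percentile from 0 to 100 among the 57623 regions that matched one to one between the lists. The change is the shZHX2 rank minus the shCtrl rank, in points. Ranks compare order within each list and leave out any change common to all regions. Over the 13613 genes with a matched promoter region the median change was 0.46 points, with quartiles of −2.61 and 4.71, and 263 genes (1.93%) ranked 20 points or more higher with shZHX2 and 207 (1.52%) that much lower.

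Glycolysis promoters sat higher in the shZHX2 order. Their median change was 4.39 points over 17 promoters, of which 11 were higher, beside 7364 of 13613 over all genes. It was 2.43 points above what promoters of the same shCtrl rank showed, 2.87 points when regions were ranked by −log10 p, and 5.78 points among the 16 of like width in both lists. GPI, the second enzyme of glycolysis, moved from rank 39.4 to 59.7, and HK2, the hexokinase that traps glucose in the cell, from 40.2 to 54.9. PFKFB3, which makes the activator of phosphofructokinase, moved from 70.3 to 83.2 while 4 of its 11 assigned regions were lost, with 3.01 expected. ALDOC, an aldolase, moved from 78.4 to 90.0 and SLC2A1, the glucose transporter GLUT1, from 43.5 to 53.1. PGK1, which makes ATP in glycolysis, stayed at rank 99.9 in both lists, with fold 14.3 in shCtrl and 14.5 in shZHX2. At GAPDH the promoter window held no shZHX2 region, but its shCtrl region still touched one whose edge had moved out of the window.

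VEGFA, the main growth factor for vessels, had the largest gain of rank among the HIF targets. Its promoter region ran over chr6:43769424-43771984 in shCtrl and chr6:43769416-43771120 in shZHX2 (hg38), a width of 2561 bp against 1705 bp. Fold enrichment was 2.98 in shCtrl and 4.70 in shZHX2, and the rank 8.49 and 44.4. The −log10 p was 152 and 279. The region was narrower with shZHX2 from nearly the same left edge, and the part of width in this rank was not tested. Around VEGFA 4 of 11 regions were lost with 4.47 expected. The opposite direction was seen at LOXL2, which crosslinks collagen (rank 65.5 to 34.3), and EPO, erythropoietin (38.6 to 12.3). Those regions were also narrower with shZHX2, 397 to 345 bp and 380 to 200 bp. In the list 3 of 24 promoters ranked 20 points or more lower, these among them, beside 1.52% of all genes. The list's median change was 0.97 points, but −1.22 points against promoters of the same shCtrl rank. BHLHE40, a repressor that HIF induces, had 4 of 7 regions lost with 1.94 expected. CA9, the carbonic anhydrase often used as a hypoxia marker, had no region in either list.

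**Figure D2:**
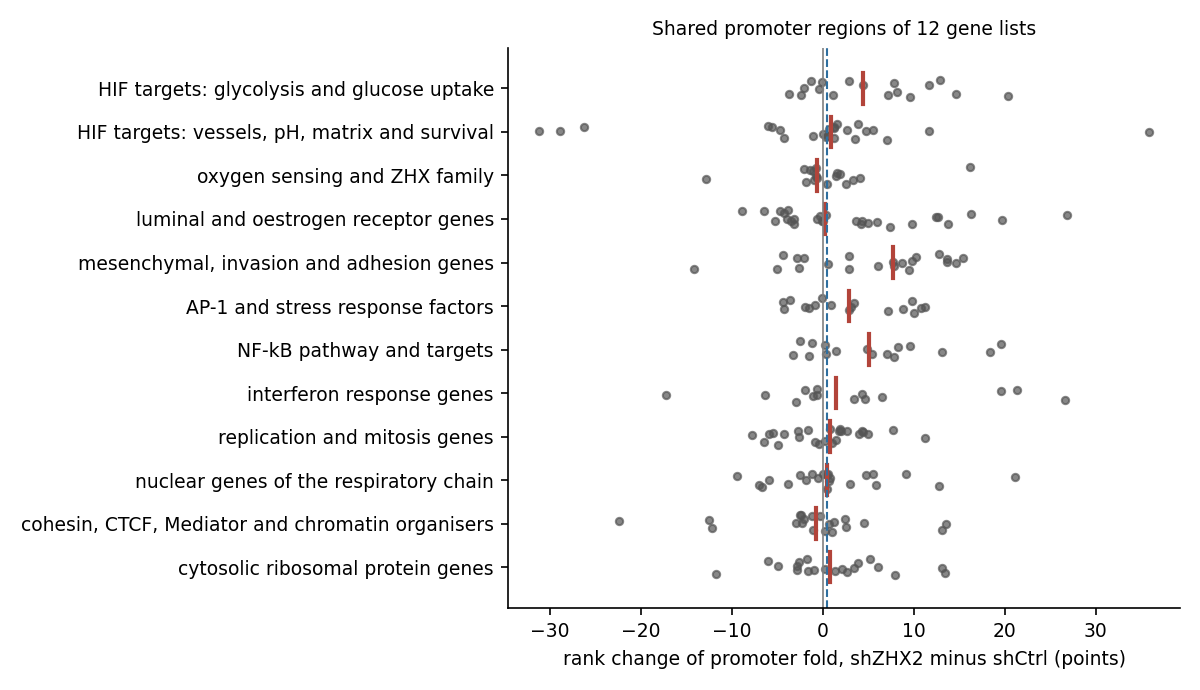
Change in promoter fold rank (points, shZHX2 minus shCtrl, horizontal axis) for each member with a matched promoter region, 1 row of points per list for 12 lists. Red bars are list medians and the dashed line the median of all genes. VEGFA lies at 35.9 points and LOXL2 at −31.2, the extremes over all list members.

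The oxygen sensing and ZHX genes held 63 shCtrl regions, of which 14 were lost with 15.1 expected, and 1 of 50 shZHX2 regions was gained with 3.75 expected. With lists of equal length by fold 10 were lost with 9.45 expected and 9 gained with 8.77 expected. The median promoter change was −0.66 points over 17 genes. EGLN1, the prolyl hydroxylase that marks HIF for VHL, moved from rank 47.2 to 63.5, and CUL2, the scaffold of the VHL ligase, from 85.5 to 72.7.

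Luminal and oestrogen receptor genes gained regions more often than their strength alone gave. Of 196 shZHX2 regions assigned to the 33 genes 25 were gained with 15.5 expected, at 14 of 33 genes (42.4%), beside 12.2% of all genes. Within 20 kb of the genes the numbers were 10 and 7.0. With lists of equal length 41 were gained with 31.5 expected by −log10 p, and 86 with 36.4 expected by fold. Genes with many regions have more chances to hold a gained one, and these genes hold many. ESR1, the oestrogen receptor, had 3 gained with 1.71 expected, GRHL2, an epithelial transcription factor, 3 with 1.56, PRLR, the prolactin receptor, 3 with 1.82, and GREB1, a cofactor the receptor induces, 2 with 0.70. TRPS1, a GATA-type repressor common in breast cells, had 5 of 15 gained with 2.34 expected. Lost regions in the list were 48 with 55.4 expected.

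The luminal promoters themselves showed little shift in order. The median was 0.24 points over 28 genes, 15 of them higher and 13 lower, and −1.92 points against promoters of the same shCtrl rank. The genes named below all ranked higher, while the lowest change in the list was −8.84 points. TFF3, a secreted trefoil peptide, had the largest change, from 41.2 to 68.0. TRPS1 moved from 33.3 to 53.0, KRT19, a luminal keratin, from 15.1 to 31.4, CCND1, cyclin D1, from 25.0 to 38.8, and ESR1 from 30.5 to 43.2.

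The NF-kB list, of pathway members and their targets, had 8 of 57 shZHX2 regions gained with 3.48 expected, at 6 of 19 genes (31.6%, beside 12.2% of all genes), and 6 of 56 shCtrl regions lost with 8.79 expected. Within 20 kb 5 were gained with 2.2 expected. With lists of equal length the excess was smaller, 9 gained with 7.09 expected by −log10 p and 11 with 8.60 expected by fold. By −log10 p 36.8% of the NF-kB genes then had a gained region, beside 23.8% of all genes. With the lists as deposited, the NF-kB list was the only one of the 18 with a gained promoter. There were 2, at CXCL8, the neutrophil chemokine interleukin 8, and CCL2, a monocyte chemokine. Over all genes with a shZHX2 promoter region the count was 92 of 13853 (0.664%). IRF1, a transcription factor of inflammation, had 3 gained regions with 1.09 expected. The median promoter change was 5.14 points over 16 genes, of which 12 were higher. It was 3.37 points against promoters of the same shCtrl rank, 1.56 points by −log10 p and 3.20 points among regions of like width. ICAM1, an adhesion molecule for leukocytes, moved from rank 26.2 to 45.7, IL6, interleukin 6, from 53.3 to 71.7, and TRAF1, an adaptor of TNF receptors, from 65.2 to 78.3. None of the 16 promoters ranked 20 points or more lower or higher.

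Mesenchymal, invasion and adhesion genes had the highest median promoter change of the lists with more than 10 ranked genes, 7.71 points over 21 genes. Of these 15 were higher and 6 lower, with changes from −14.2 to 15.4 points, and the genes named below were among the higher ones. The median was 4.69 points by −log10 p and 3.84 points against promoters of the same shCtrl rank. CD44, a hyaluronan receptor, moved from rank 28.8 to 44.1, FN1, fibronectin, from 38.9 to 53.5, COL6A1, a collagen VI chain, from 28.6 to 42.3, and PLAU, urokinase, from 39.5 to 53.2. Their calls were near expectation, with 23 of 104 regions lost (25.7 expected) and 4 of 86 gained (6.69 expected), or 16 gained with 15.7 expected at equal length by fold. The AP-1 and stress factor list had a median of 2.87 points but −1.18 points against promoters of the same shCtrl rank, so the sign depended on that choice.

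In the interferon response list 7 of 14 promoters ranked higher and 7 lower, with a median of 1.43 points. OAS1, a sensor of double-stranded RNA, moved from rank 36.2 to 62.8 and OAS2 from 44.7 to 64.3. IFIT2, an antiviral RNA-binding protein, moved from 52.9 to 74.2. OAS1 and IFIT2 were the 2 of 14 that ranked 20 points or more higher, beside 1.93% of all genes. RIGI, a sensor of viral RNA, moved down from 78.7 to 61.5 and IRF7, a transcription factor of the interferon response, from 33.0 to 26.6.

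Genes of cohesin, CTCF, Mediator and chromatin organisers kept more of their regions than expected from strength, with 7 of 70 lost and 13.0 expected. Promoter order in the list had a median change of −0.69 points. MED12, a Mediator subunit, moved from rank 84.7 to 72.2, and NIPBL, the cohesin loader, from 22.8 to 10.6, while YY1, a zinc finger factor at enhancers, moved from 46.2 to 59.7.

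The control lists lay near expectation. Replication and mitosis genes had 8 of 52 regions lost with 6.39 expected and none of 44 gained with 0.79 expected. Cytosolic ribosomal protein genes had 6 of 47 lost with 5.27 expected and none of 41 gained with 0.95 expected. Nuclear genes of the respiratory chain had 10 of 57 lost with 9.79 expected, and NDUFA9, a complex I subunit, moved from rank 65.5 to 86.6. Housekeeping genes had 11 of 60 lost with 9.86 expected and 3 gained with 2.62 expected, the latter 14 with 6.42 expected at equal length by fold, and ACTB, beta actin, moved from 16.3 to 37.0. Over all 352 list members 219 regions were lost with 244.6 expected and 60 gained with 61.5 expected. At least 1 lost region stood at 130 of 328 members (39.6%), near the 39.9% of all genes, and at least 1 gained at 46 of 329 (14.0%), near the 12.2%.

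**Figure D3:**
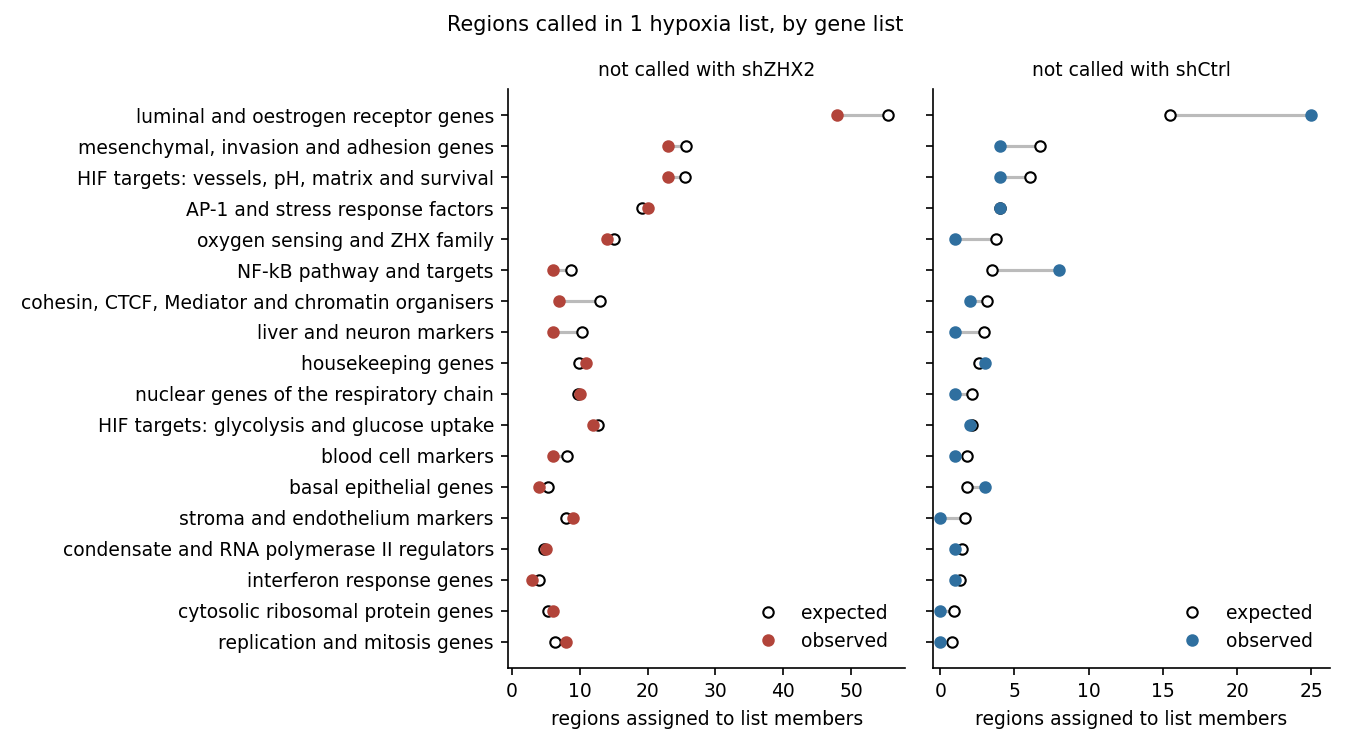
Number of lost (left) and gained (right) regions assigned to each of 18 gene lists (horizontal axis), filled points, beside the number expected from their −log10 p decile, open points. With the lists as deposited, gained regions stand above expectation in the luminal list (25 against 15.5) and the NF-kB list (8 against 3.48). Lost regions stand below it in the cohesin and CTCF list (7 against 13.0). At equal length by −log10 p, not drawn, the luminal list had 41 gained against 31.5 and the NF-kB list 9 against 7.09.

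Promoters had the lowest shares of lost and gained regions of any place in the genome compared here. The promoter window was 500 bp around a start, or 1000 bp around both gene ends where no start was known. Of 14159 genes with a shCtrl region there, 398 (2.81%) had none with shZHX2, and of 13853 genes with a shZHX2 promoter region 92 (0.664%) had none in shCtrl. Of these, 257 lost and 67 gained promoters were at genes with a known start. The balance turned with lists of equal length, to 205 lost and 248 gained by −log10 p and 216 and 643 by fold. At 43 of the 398 and 16 of the 92 the region still touched one of the other list whose edge had moved out of the window, which leaves 355 and 76. Lost promoter regions were weak, with a median fold of 3.18, and 90.2% were also called in normoxia. The gained ones had a median fold of 3.29, and 72.8% were also called in normoxia.

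Gained promoters with the highest folds and no region of the other list touching them included a chemokine, a protease and receptors. LRRTM4, a synaptic adhesion protein, had a gained region at chr2:77522190-77522525 with fold 6.02. CXCL8 had one at chr4:73740472-73740835 with fold 5.29 and −log10 p 40.6, TMPRSS11F, a serine protease, one at chr4:68129815-68130079 with fold 4.97, and CALCRL, the receptor part for CGRP and adrenomedullin, one at chr2:187448114-187448613 with fold 4.79. The CXCL8 and CALCRL regions were also called in normoxia. CCL2 had a weaker gained region at chr17:34254745-34254949 with fold 3.19. ITGB6, an integrin of epithelia, and OLR1, a receptor for oxidised LDL, chosen after their values were seen, had folds of 4.72 and 4.11. LRRTM4 and OLR1 had no known start, so their regions lie at a gene end that may not be the start.

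Lost promoters with no touching shZHX2 region included FAM3B, a secreted peptide, at chr21:41303014-41303399 with fold 6.0, OR1E1, an odorant receptor, at chr17:3397795-3398217 with fold 7.68, and BLID at chr11:122115611-122116015 with fold 5.79. RYR1, the calcium release channel of muscle, at chr19:38433438-38433836 with fold 5.37, and PRSS48, a serine protease, at chr4:151276791-151277200 with fold 5.35, were chosen after their values were seen. GOLGA8Q, lost with fold 6.75, belongs to a family of near-identical copies, so its reads could be split between copies. FAM3B, OR1E1 and BLID had no known start, so their regions lie at a gene end that may not be the start. None of the genes named in this paragraph was a member of the gene lists.

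Sequences before the starts are shown for 8 promoters, 3 gained, 1 lost, 2 that ranked lower and 2 that ranked higher. Each is the 250 bases before the RefSeq start (GRCh38.p14), 5′ to 3′ on the gene's strand, with matches on either strand in capitals. The motifs searched included the HIF cores named above, the AP-1 site TGANTCA, and the NF-kB site GGANTTTCC. Promoter elements searched were the GC box GGGCGG, the CCAAT box and, for the TATA box, the letters TATAAA. A match describes letters and is not a bound site. CXCL8 (chr4:73740319-73740568, plus strand) carries AP-1, NF-kB and TATA box matches 137, 91 and 31 bases before the start. Over the same stretch of 22175 starts AP-1 was found in 5.34%, NF-kB in 1.42% and the TATA box in 9.0%. TMPRSS11F (chr4:68129870-68130119, minus strand) has 1 AP-1 match and CALCRL (chr2:187448253-187448502, minus strand) none of the motifs searched. RYR1 (chr19:38433441-38433690, plus strand) has both HIF cores, a GC box and CCAAT, found in 20.2%, 38.2%, 53.7% and 32.7% of starts.
CXCL8: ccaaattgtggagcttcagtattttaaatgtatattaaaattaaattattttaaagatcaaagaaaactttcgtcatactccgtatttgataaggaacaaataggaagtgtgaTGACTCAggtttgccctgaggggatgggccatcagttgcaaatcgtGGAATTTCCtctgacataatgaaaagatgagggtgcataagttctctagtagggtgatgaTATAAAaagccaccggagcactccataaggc
TMPRSS11F: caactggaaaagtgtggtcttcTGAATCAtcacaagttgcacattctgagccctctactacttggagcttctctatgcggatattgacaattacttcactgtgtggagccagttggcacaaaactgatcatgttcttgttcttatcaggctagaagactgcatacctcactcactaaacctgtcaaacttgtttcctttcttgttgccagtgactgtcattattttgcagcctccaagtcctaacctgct
CALCRL: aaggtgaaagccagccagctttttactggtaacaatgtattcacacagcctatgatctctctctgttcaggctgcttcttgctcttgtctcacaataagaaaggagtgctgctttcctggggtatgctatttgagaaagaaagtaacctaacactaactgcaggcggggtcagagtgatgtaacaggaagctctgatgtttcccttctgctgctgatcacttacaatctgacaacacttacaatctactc
RYR1: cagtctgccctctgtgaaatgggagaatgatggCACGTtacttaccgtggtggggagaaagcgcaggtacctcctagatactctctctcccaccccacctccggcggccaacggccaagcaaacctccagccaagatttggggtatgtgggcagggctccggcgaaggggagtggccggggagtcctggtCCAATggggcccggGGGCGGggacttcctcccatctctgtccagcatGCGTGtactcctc

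Among genes called in both lists, the ones that moved most in rank were not members of the lists above. LLCFC1, a sperm protein, moved from rank 83.6 to 10.1 as its fold went from 7.27 to 3.19 and its width from 473 to 219 bp, and MEI4, a meiotic recombination protein, from 82.8 to 13.4 with fold 7.19 to 3.34. PGLYRP3, a peptidoglycan receptor, moved from 79.1 to 12.2, CCL16, a chemokine, from 74.8 to 14.3, DNAAF9 from 76.9 to 21.4, and APOD, apolipoprotein D, from 76.6 to 21.2 with the width near equal at 1123 and 1124 bp. GOLGA8J, with 81.8 to 7.20, belongs to the GOLGA8 copies and is uncertain. CCL16, DNAAF9 and APOD had no known start, so their regions lie at a gene end that may not be the start.

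Higher ranks with shZHX2 were led by OR14A16, an odorant receptor, from 33.8 to 84.1. FSCN1, the actin bundler fascin, moved from 21.1 to 68.4, KRT222 from 23.7 to 68.8, NELFB, a subunit of the polymerase pausing factor NELF, from 23.9 to 66.1, and DMPK from 36.9 to 78.0. LRRN3, a leucine-rich repeat neuronal protein, moved from 15.9 to 57.8 with fold 3.34 to 5.49, and SLITRK6, a neuronal membrane protein, from 57.3 to 98.6 with fold 5.38 to 11.07. PRR33 and TNNT3 share 1 region, ranked 11 in shCtrl and 61 in shZHX2. OR14A16, FSCN1, KRT222, PRR33 and TNNT3 had no known start, so their regions lie at a gene end that may not be the start. LLCFC1 (chr7:142939234-142939483, plus strand) carries the core ACGTG and CCAAT, and MEI4 (chr6:77650024-77650273, plus strand) none. SLITRK6 (chr13:85799420-85799669, minus strand) carries ACGTG and an AP-1 match, and LRRN3 (chr7:111090877-111091126, plus strand) CCAAT.
LLCFC1: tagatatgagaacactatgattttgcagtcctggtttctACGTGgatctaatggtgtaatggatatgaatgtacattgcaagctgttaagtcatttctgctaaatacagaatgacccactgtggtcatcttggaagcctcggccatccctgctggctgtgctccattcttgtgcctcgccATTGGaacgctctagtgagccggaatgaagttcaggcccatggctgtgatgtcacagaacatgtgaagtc
MEI4: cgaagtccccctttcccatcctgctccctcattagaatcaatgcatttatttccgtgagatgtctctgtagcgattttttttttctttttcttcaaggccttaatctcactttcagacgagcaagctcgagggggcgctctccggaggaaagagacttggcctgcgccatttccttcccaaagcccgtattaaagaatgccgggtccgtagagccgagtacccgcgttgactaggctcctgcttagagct
SLITRK6: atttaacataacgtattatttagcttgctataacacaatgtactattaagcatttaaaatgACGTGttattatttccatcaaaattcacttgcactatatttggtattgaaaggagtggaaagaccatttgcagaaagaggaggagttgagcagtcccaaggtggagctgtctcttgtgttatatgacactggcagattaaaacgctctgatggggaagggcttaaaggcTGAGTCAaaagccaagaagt
LRRN3: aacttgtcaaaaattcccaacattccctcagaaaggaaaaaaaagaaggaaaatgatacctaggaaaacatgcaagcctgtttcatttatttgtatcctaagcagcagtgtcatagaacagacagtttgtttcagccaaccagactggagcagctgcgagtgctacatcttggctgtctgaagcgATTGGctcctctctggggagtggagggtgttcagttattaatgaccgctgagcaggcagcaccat

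**Figure D4:**
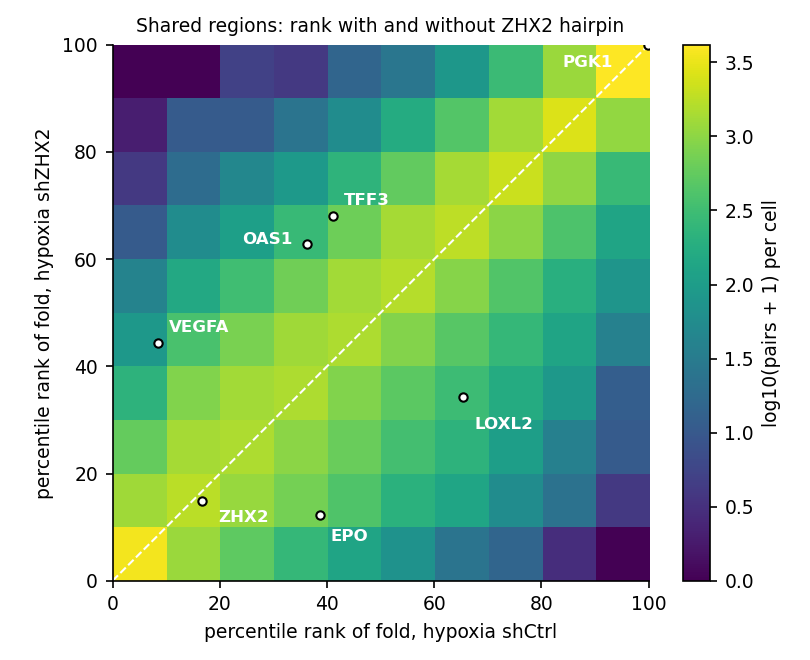
Rank of fold in shZHX2 (vertical axis, percentile) against rank in shCtrl (horizontal axis, percentile) over the one-to-one matched regions, shaded by log10 of the number of pairs plus 1, with 7 promoters marked. The correlation of the ranks was 0.87, as a description of matched regions within these lists.

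Away from promoters the order moved more. Over all 57623 matched regions 4062 (7.05%) ranked 20 points or more higher and 4987 (8.65%) that much lower, 15.7% together. The share was 3.94% at promoters and 19.2% away from them. It was 10.3% among pairs of like width, meaning at most a 1.25-fold difference. With shZHX2 65.5% of matched regions were narrower, with a median log2 width ratio of −0.06. Over the 56337 shCtrl regions matched in all 3 lists the share was 15.8% for shZHX2 against shCtrl and 10.2% for hypoxia against normoxia. Those comparisons share the hypoxic shCtrl list and are set side by side only.

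By place, promoter regions were lost in 3.70% with 5.97% expected from strength and gained in 0.933% with 1.67% expected. Regions more than 50 kb from any gene start or end were lost in 33.8% with 32.0% expected and gained in 11.1% with 9.56% expected. Inside genes 28.2% were lost with 29.5% expected and 9.62% gained with 8.83% expected. The narrowest regions, under 300 bp, were lost in 69.3% and gained in 24.3%, and those of 1000 bp or more in 1.61% and 0.287%.

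Some genes lost many regions at once. The largest excess over expectation, by regions assigned within 50 kb, was at SULT2A1, a sulfotransferase of steroids, with 6 of 12 lost and 1.57 expected. CLINT1, which sorts vesicles, had 5 of 6 lost with 1.46 expected, APBA2, a neuronal adaptor, 9 of 13 with 5.25, LINGO1, a neuronal receptor subunit, 9 of 17 with 5.54, and TMEM132B 11 of 17 with 8.04. GRM4, KLHDC4, OTUD7A, STK33 and ADGRD1 completed the list of 10. With the expected number taken from fold deciles, 5 of the 10 stayed, and SULT2A1 was not among them.

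The regions beside SULT2A1 were regularly spaced. With shZHX2 they start at chr19 positions 47903987, 47909306, 47914687, 47920035, 47925433 and 47930782, every 5319 to 5398 bp, and a last one lay 3137 bp further on, at 47933919. In shCtrl a further series lay between them, starting at 47907279, 47912768, 47918187, 47923580 and 47928545, with folds of 3.57, 5.11, 3.34, 3.11 and 3.11 and −log10 p of 69.7, 120, 89.8, 84.1 and 40.8. All 5 were lost with shZHX2, and all 5 were also called in normoxia. Whether near-identical copies share reads here was not tested, so the values at single regions are uncertain.

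Genes with most gained regions over expectation were KIF16B, a kinesin of endosomes, with 4 of 7 and 0.87 expected, and PEX5L with 4 of 11 and 1.03. TRPS1 had 5 of 15 with 2.34. PDE4D, a cyclic AMP phosphodiesterase, had 4 of 15 with 1.54, RNF145 3 of 5 with 0.58, and PHLDA1 3 of 6 with 0.95. KLHL13, GSE1 and GCM1, a placental transcription factor, were also among the 10, of which 8 stayed under fold deciles.

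The strongest single lost region lay at chr2:90173338-90173537 with fold 24.8 and −log10 p 570, with no gene within 50 kb and no call in normoxia. A lost region inside ACTB, at chr7:5528508-5528749, had fold 4.39 and −log10 p 533, and lay 837 bp from the nearest shZHX2 region. The next, at chr21:8436273-8436477, had −log10 p 500 with a fold of only 1.33. Whether reads at these regions match several places in the genome was not tested. The strongest gained were at chr5:11724878-11725363, with fold 9.49 and −log10 p 119, and chr5:126009542-126009951, with fold 8.67.

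Gained regions were more frequent than their strength gave in gene-poor parts of the genome under all but 1 of the settings compared. From the gene-poorest to the gene-richest of 5 groups of regions, by genes within 250 kb, the gained number over that expected was 1.28, 1.03, 0.96, 0.85 and 0.68, and 1.28 to 0.73 among regions away from promoters alone. The lost ratio ran from 0.97 to 1.05, and from 1.21 in the gene-poorest to 0.77 in the gene-richest group when the expected number came from fold deciles. With the lists made equal in length by −log10 p the gained ratio ran from 1.13 to 0.82. Made equal by fold it ran the other way, from 0.95 to 1.29, when the expected number came from −log10 p deciles, and from 1.11 to 0.92 when it came from fold deciles. The direction in that setting depended on the measure of strength behind the expected number.

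**Figure D5:**
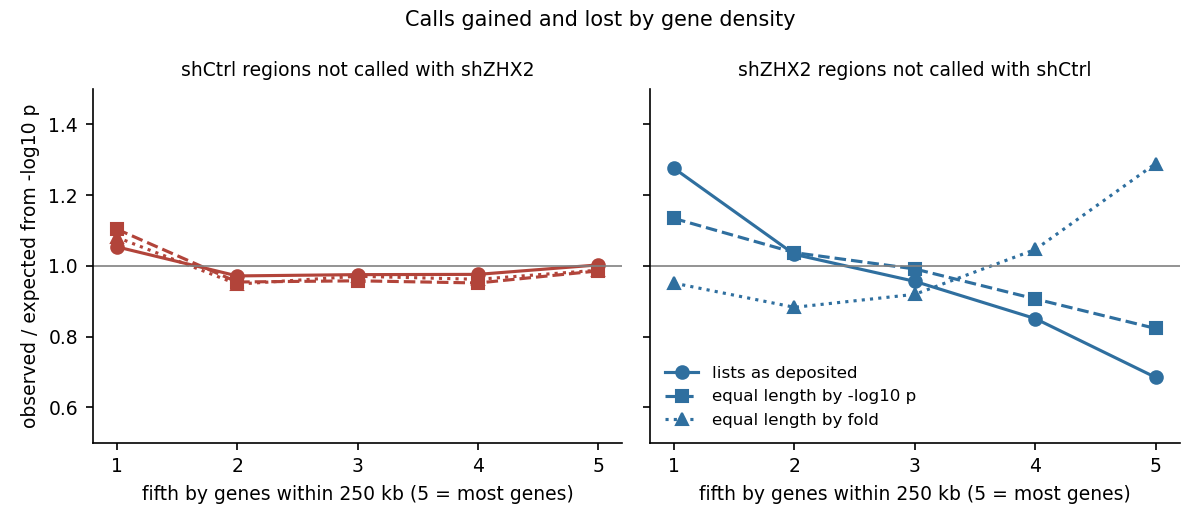
Lost (left) and gained (right) regions over the number expected from their −log10 p decile (vertical axis) in 5 groups of regions by genes within 250 kb (horizontal axis, gene-poorest first), for the lists as deposited and made equal in length. The gained ratio drops from 1.28 to 0.68 with the lists as deposited, and rises from 0.95 to 1.29 with lists made equal by fold.

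Chromosomes differed in the same way. With Y left out, which held 47 shZHX2 regions, gained regions were fewest over expectation on chromosome 19, the gene-richest, with 78 of 2753 and a ratio of 0.56, then 22 (0.64) and 16 (0.67), and most on 13 (1.43), 6 (1.32) and 4 (1.30). Lost regions had the opposite order, 1.11 on 19 and 0.88 on 6. With fold deciles the lost ratio was 0.89 on 19 and 1.04 on 13, the other way round, and with lists of equal length by fold the gained ratio was 0.94 on 19 and 0.91 on 13. The gained ratio held with fold deciles, at 0.45 on 19 and 1.61 on 13. Across 23 chromosomes the lost and gained ratios from −log10 p deciles had r = −0.87, as a description, since each pair comes from the same 2 lists. No r was computed with fold deciles. There both ratios were under 1 on 19 and over 1 on 13, while on 15 they were 1.11 lost and 0.85 gained.

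In windows of 1 Mb with at least 20 regions the median share lost was 24.0%, ranging from 0 to 68.1%. Of 1518 windows 115 lay 10 points or more over expectation and 123 under. On chr15 at 28 to 29 Mb 21 of 46 regions were lost with 10.9 expected. In that window 7 of the lost regions were assigned to APBA2, named above, and others to GOLGA8 copies, where values are uncertain. On chr3 at 194 to 195 Mb 16 of 95 were lost with 27.7 expected, and at 136 to 137 Mb 8 of 22 were gained with 2.27 expected. After a gained region the next region 5 to 20 kb away was also gained in 10.0%, 1.38 times expectation. The ratio was 1.11 under 5 kb and 1.42 over 20 kb, and for lost regions it ran from 1.02 to 1.10 over the same classes, so it was not highest at the nearest regions. After a shZHX2 region that was not gained, the ratio was 0.89 under 5 kb, 0.86 at 5 to 20 kb and 1.07 over 20 kb.

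Starts that changed call differed in base composition from stable ones, over the 300 bases around each start. Each start was counted singly, so the counts can include starts of genes still called at another start. The median GC content was 66.0% at 14447 starts open in both lists, 60.7% at 391 lost starts, 48.3% at 133 gained starts, and 51.7% at 7204 starts open in neither. Starts open in both with a −log10 p under the upper quartile of lost starts, called weak here, numbered 520 and were at 60.2%. The ETS core CCGGAAG was in 17.9% of the stable, 3.32% of the lost, 3.76% of the gained and 4.81% of the weak starts, beside 12.8% of all. The GC box was in 71.7%, 47.8%, 23.3% and 51.7%. The TATA box was in 4.99%, 10.2%, 15.0% and 7.31%. The lost starts were close to the weak ones in these, and the gained starts were nearer to those open in neither. The weak set was defined from the strength of the lost starts. No such set was made for the gained starts, so lost and gained starts are not compared like for like.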

How the data were processed

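ATAC-seq regions of T47D cells were analysed from 3 lists of called regions, 1 per group of 3 samples. The submitters' processing notes name FastQC, Bowtie2, SAMtools, MACS2 and the build hg38, with no versions. In the deposited files, which have no header, the authors' values are a score, a fold enrichment (a ratio over background) and a −log10 p-value per region. How the samples were combined and which settings were used is not given in the sources used here. The score was not used.

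A region was lost or gained where it shared no base (1 bp) with the other list. Genes came from RefSeq (GRCh38.p14; 22175 starts of 15842 genes, gene ends for 4195 others). Promoters were 500 bp around starts or 1000 bp around gene ends, and regions were assigned to the nearest within 50 kb. Of 352 list genes 349 matched by symbol and 3 by an older symbol.

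The 10 genes per rule were those with the most lost or gained regions over expected, the highest fold at a lost or gained promoter, and the largest rank change, plus up to 4 members per list. Some genes that the rule picks are not reported here. The members and lists were chosen with earlier results of these data known. Python 3.11.15, pandas 2.3.3, numpy 2.4.6, scipy 1.17.1 and matplotlib 3.10.9 were used. Counting steps were tested on simulated lists.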

Additional observations from a re-analysis of the deposited data

How the results depend on the processing

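No replicate could be left out and no test run, since each group has 1 list. No paired analysis was possible because the result comes from no test and the lists carry no replicate values. The share lost was 13.9% with −log10 p of 20 or more, 14.9% with lists of equal length by −log10 p and 17.4% by fold, from 25.0%. The share gained was 2.66%, 14.5% and 17.1%, from 7.11%. With equal lengths the lost and gained shares are close by construction. Lost promoters numbered 205 and 216 and gained promoters 248 and 643 with the lists made equal by −log10 p and by fold. The share of regions moved 20 points was 11.8% by rank of −log10 p, 16.3% with −log10 p of 20 or more in both lists, 38.4% at 10 points and 10.3% among pairs of like width, chosen after seeing the data. Members of the gene lists with a lost region numbered 82 within 20 kb and 86 at equal length, and with a gained region 28 and 85. Windows with a share lost 10 points or more over expectation were 1.90% at 5 Mb against 7.58% at 1 Mb. Of the 10 genes with most lost regions 5 stayed with fold deciles. The other alternatives kept within the set limits.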
